A study of Mus musculus with 2 samples.

Results

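The regions described here are the CTCF-bound sites around 8 cytokine genes of T cells: Il4, Il13, Il5, Ifng, Il2, Il21, Il10 and Il17a. The genes fall into 5 loci, and a site belonged to a locus when its centre lay within 250 kb of the span that holds the genes. By this rule 111 regions were members, of 53551 regions in the whole map. Only positions chose them, so their widths were free to vary. The map comes from CTCF ChIP-seq of CD4-CD8- double-negative (DN) thymocytes, the T cell precursors that carry neither coreceptor. The mice were C57BL/6, Rag1 -/- and 4 to 8 weeks old. Without RAG1 the antigen receptor genes cannot be cut, and thymocytes stop at the DN stage. The labels describe 2 libraries, the anti-CTCF precipitate and an input control from cells of the same genotype, and only the precipitate was used here. No expression was measured, so the cell label could not be checked against markers.

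CTCF is a zinc-finger protein that marks insulator elements and the bases of chromatin loops, where it limits which enhancers reach which promoters. Cytokine genes are switched on mainly after mature T cells are activated and take up a helper fate. Il4, Il13 and Il5 are the genes of type 2 helper (Th2) cells, Ifng is that of Th1 cells and Il17a that of Th17 cells. In mature helper T cells CTCF is known to bind at the Ifng locus and at the Th2 locus and to take part in their folding. DN thymocytes stand far upstream of these fates.

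The deposited track listed CTCF peaks as bins of 25 bp with no height, score or p-value. Bins that touched were joined into regions, and the width of a region was the only measure of its size. Regions of 500 bp or more are called wide below and made up 46.6% of the whole map. Regions of 100 bp or less are called narrow and made up 22.3%, and 3.35% were wider than 700 bp. Read depth is unknown. There was 1 library and no replicate, so no p-value is given and all intervals cover counting error only. The gene spans are known to the nearest 10 kb in mm9 coordinates. The order of genes was taken from RefSeq (GRCm38), which held all 8 genes, and positions of single genes, promoters or exons in mm9 were not used here.

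The 5 loci differed in how many CTCF regions surrounded the genes. The locus of Il4, Il13 and Il5 on chromosome 11 had 43 regions in its 620-kb window, and the Il10 locus on chromosome 1 had 32 in 520 kb. The Il2 and Il21 locus on chromosome 3 had 13 in 630 kb, the Il17a locus on chromosome 1 had 12 in 520 kb and the Ifng locus on chromosome 10 had 11 in 520 kb. Inside the gene spans themselves lay 9 regions in all, 3 at Il4/Il13/Il5, 1 at Ifng, 4 at Il2/Il21, 0 at Il10 and 1 at Il17a. At each of the 5 loci more regions lay on the side of higher coordinates than on the other, 63 against 39 over all loci together. The excess was 22 against 18 at Il4/Il13/Il5, 6 against 4 at Ifng, 7 against 2 at Il2/Il21, 21 against 11 at Il10 and 7 against 4 at Il17a. All 6 gaps of 1 kb or less at Il4/Il13/Il5 lay above the span. Joining within 200 or 1000 bp left 39 or 37 of its 43 regions. Every lost region lay above the span, so the excess there did not remain. Wide regions, of 500 bp or more, numbered 9 on each side at Il4/Il13/Il5 and 3 on each side at Ifng. At Il17a 4 lay below and 3 above, at Il2/Il21 0 below and 6 above, and at Il10 9 below and 13 above. The difference between sides was not tested.

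**Figure D1:**
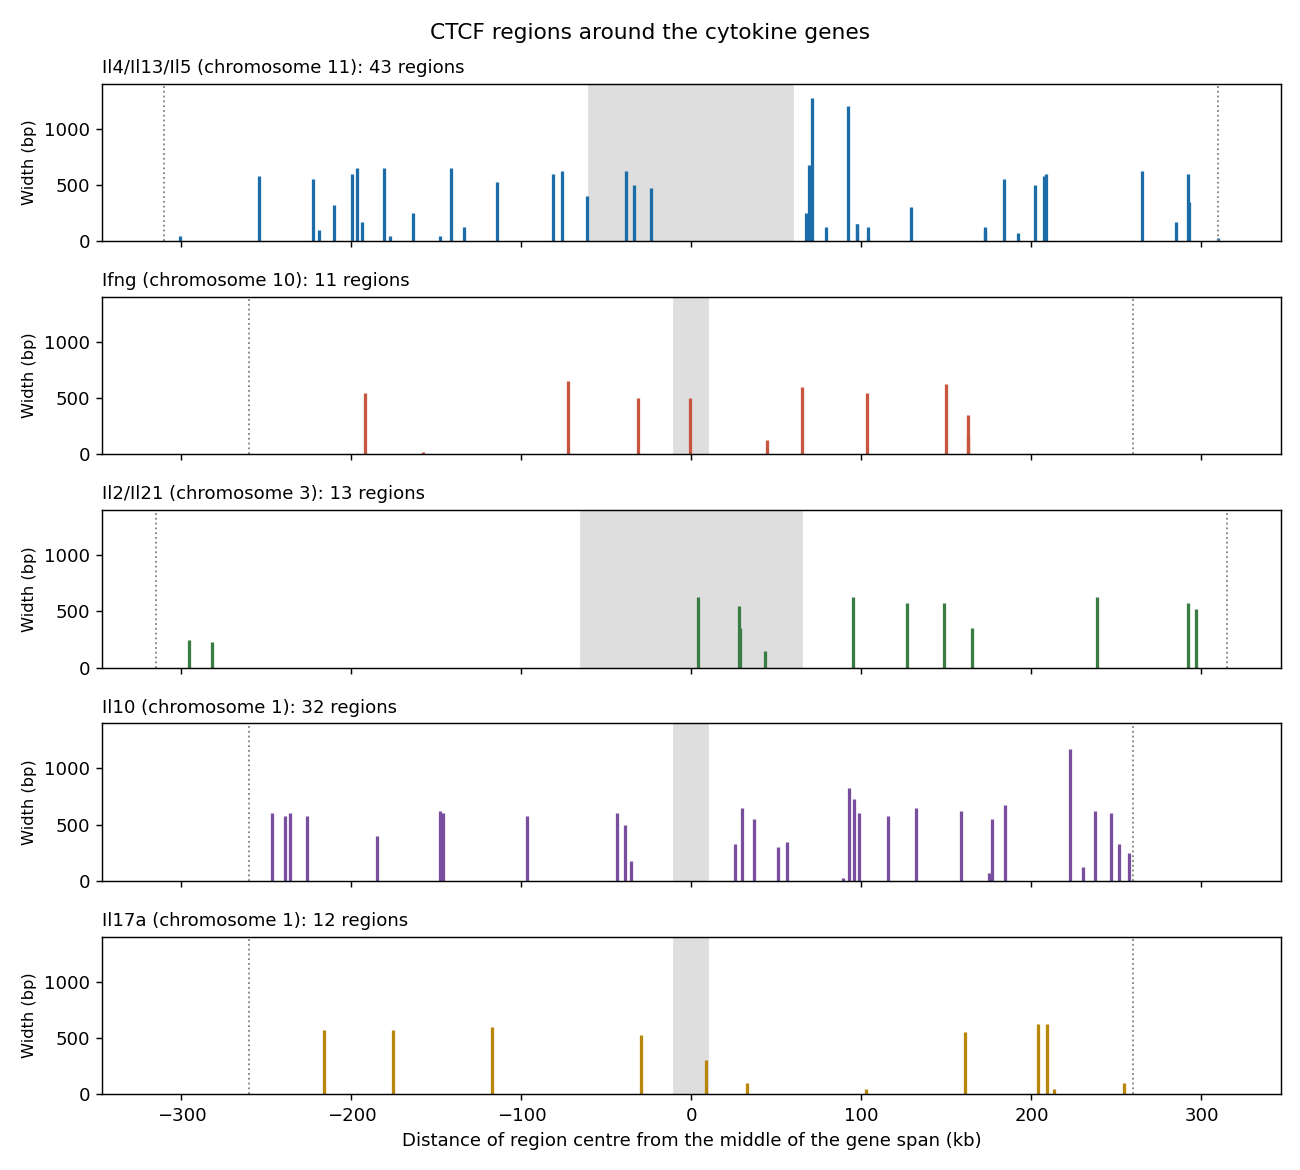
Position (horizontal axis, kb from the middle of the gene span) and width (height of each line, bp) of every CTCF region at the 5 loci. Grey bands are the gene spans and dotted lines the limits of the windows 250 kb beyond them. The Il10 band holds no region, and the Il2/Il21 locus has an empty stretch of 286 kb that reaches into its band.

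Measured per length, the loci formed a dense pair and a sparse trio. The Il4/Il13/Il5 locus had 69.4 regions per Mb (exact Poisson 95% interval 50.2 to 93.4) and the Il10 locus had 61.5 per Mb (42.1 to 86.9). The Il17a locus had 23.1 per Mb (11.9 to 40.3), the Ifng locus 21.2 per Mb (10.6 to 37.9) and the Il2/Il21 locus 20.6 per Mb (10.99 to 35.3). The ratio of Il4/Il13/Il5 to Il10 was 1.13 (95% interval 0.697 to 1.84), so these loci were not distinguishable at this count. The ratio of Il4/Il13/Il5 to Ifng was 3.28 (1.66 to 7.05), and the ratio of Il10 to Il17a was 2.67 (1.34 to 5.69). Each of the 6 ratios of a dense to a sparse locus had an interval above 1, with lower bounds of 1.34 to 1.77. The 3 sparse loci differed from each other by ratios of 1.03 to 1.12, with intervals that included 1.

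The dense loci also stood above the chromosomes that hold them. The Il4/Il13/Il5 locus exceeded the 33.9 regions per Mb of chromosome 11, and the Il10 locus exceeded the 17.9 per Mb of chromosome 1. Il17a shares chromosome 1 with Il10, and the interval of its locus included the value of the chromosome. So did that of the Ifng locus, against 21.2 per Mb on chromosome 10, and that of the Il2/Il21 locus, against 16.3 per Mb on chromosome 3. Set against all windows of the same length laid end to end along chromosomes 1 to 19 and X, 3.06% held at least the 43 regions of the Il4/Il13/Il5 locus. The same share was 5.41% for the 32 regions at Il10. It was 37.0% for Il17a, 39.8% for Ifng and 40.1% for Il2/Il21, so these 3 loci lay within the ordinary range of the map.

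Together the 5 loci held 39.5 regions per Mb, with counting bounds of 32.5 and 47.6. The rest of chromosomes 1 to 19 and X held 20.8 per Mb (20.6 to 20.99). The ratio was 1.90 (95% interval 1.56 to 2.29). It was 1.49 without the Il4/Il13/Il5 locus and 1.66 without the Il10 locus. Without both it was 1.04 (0.726 to 1.43), a choice made after the values were seen. The other 3 loci, taken as a group, were not distinguishable from the rest of the map. Inside the gene spans the density was 29.0 regions per Mb (13.3 to 55.1), and in the flanks it was 40.8 per Mb (33.3 to 49.5), with intervals that overlapped. The direction differed between loci. The span held 5 regions per 100 kb at Ifng and at Il17a, each from a single region, and 3.08 at Il2/Il21. It held 2.5 at Il4/Il13/Il5 and 0 at Il10, and only at these loci was it sparser than its flanks.

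**Figure D2:**
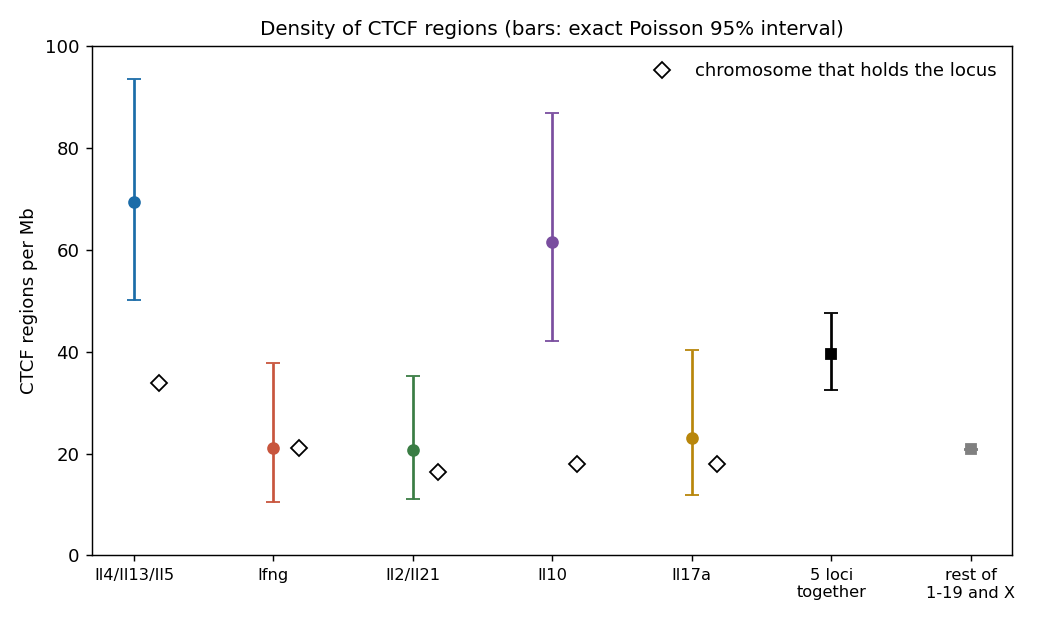
CTCF regions per Mb (vertical axis) at each locus, over the 5 loci together and over the rest of chromosomes 1 to 19 and X. Bars are exact Poisson 95% intervals and open diamonds the density of the chromosome that holds each locus. Il4/Il13/Il5 (69.4) and Il10 (61.5) stand above their chromosomes, whereas the intervals of Ifng, Il2/Il21 and Il17a include theirs.

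Il4 promotes IgE switching in B cells, Il13 drives mucus production in the airways and Il5 supports eosinophils. In the RefSeq order Il4 and Il13 come first, then Rad50, a DNA repair gene whose introns are known to hold the control region of the Th2 locus, then Il5. The gene next below is Kif3a, which encodes a kinesin motor, with Septin8 beyond it, and next above are Irf1, an interferon response factor, and the carnitine transporter gene Slc22a5. The span runs from 53.42 to 53.54 Mb. All 3 regions inside it lay in its lower part, on the side of Il4 and Il13 in the gene order. They stood at chr11:53441246-53441870 (625 bp wide), chr11:53445771-53446270 (500 bp) and chr11:53456196-53456670 (475 bp). Their centres were 21.6, 26.0 and 36.4 kb above the lower end of the span, 17.96, 21.7 and 30.4% of its length. The 3 regions were separated by 3.90 and 9.93 kb.

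Above them followed the longest stretch without a CTCF region at the Th2 locus. It ran for 90.7 kb from chr11:53456671 to 53547345 and took in the rest of the span, up to and past its upper end. Of all gaps between neighbouring regions on chromosomes 1 to 19 and X, 11.4% were at least as long. On the far side the first region, 250 bp wide, began 7.35 kb above the span at chr11:53547346-53547595. It opened a close group with regions of 675 bp at 8.90 kb and 1275 bp at 10.3 kb (chr11:53550346-53551620), the widest of the 111 regions. A further region of 1200 bp lay 31.4 kb above the span, at chr11:53571446-53572645. Below the span, a region of 400 bp at chr11:53418346-53418745 ended 1.26 kb from the lower end. Regions of 625 and 600 bp followed at 15.8 and 21.2 kb. Because the ends of the span are rounded, the nearest of these 3 may lie within it.

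Regions lined the Th2 genes closely on both sides. Between the nearest region below and the nearest above lay 129 kb, and 15 regions were inside the span or within 50 kb of it. Farther out, 7 regions stood 100 to 150 kb below the span and 7 stood 100 to 150 kb above it, while the interval of 150 to 200 kb above was empty. The gap there measured 56.1 kb, the only other gap over 50 kb at this locus. With a break wherever neighbours were more than 10 kb apart, the 43 regions formed 18 groups, of which 8 were single regions. The largest group had 6 regions, over 29.1 kb from chr11:53257321 to 53286420, and 2 groups of 5 lay above the genes. At the limit of the rule, the last region counted had its centre 249.5 kb above the span and the first one left out 251.3 kb above it, each 25 bp wide. At the other loci and sides the last centre counted lay 152.8 to 247.1 kb from the span and the first left out 254.7 to 408.3 kb from it.

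Ifng encodes interferon gamma, which activates macrophages. In the RefSeq order Il22, a cytokine that acts on epithelia, and its close relative Iltifb lie below it, and the kinase gene Dyrk2 and then Cand1 lie above. Of the 11 CTCF regions at this locus, 9 stood more than 10 kb from any other, and the remaining 2 lay beside each other in the upper flank. The 20-kb span from 117.87 to 117.89 Mb held a single region of 500 bp, at chr10:117878853-117879352. Its centre was 9.10 kb above the lower end of the span, 45.5% of its length. The nearest region below it was again 500 bp wide, at chr10:117848403-117848902, 21.1 kb from the span. The nearest above was only 125 bp wide, at chr10:117924103-117924227, 34.1 kb from the span. The first region of 500 bp or more on that side measured 600 bp and lay 54.6 kb away, at chr10:117944578-117945177. Below, a region of 650 bp, the widest of the locus, lay 62.0 kb from the span at chr10:117807303-117807952.

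Regions near Ifng followed one another at 20.4 to 46.0 kb. From the region of 650 bp below to that of 625 bp at 139.5 kb above, neighbouring gaps measured 40.5, 30.0, 44.8, 20.4, 37.8 and 46.0 kb. The other regions were one of 25 bp at 148 kb and one of 550 bp at 182 kb below, a region of 550 bp at 93.0 kb above, and pieces of 350 and 175 bp that lay 25 bp apart at 152 and 153 kb above. The longest gap, 85.3 kb, lay in the lower flank from chr10:117722028 to 117807302, and 12.2% of all gaps were at least as long. Of the 10 gaps, 1 was 10 kb or shorter, and that was the gap between these pieces.

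Il2 and Il21 encode related cytokines, of which Il2 drives T cell growth and Il21 supports B cell responses. In the RefSeq order they are direct neighbours, with Il2 on the side of lower coordinates. Adad1 lies next below and 4932438A13Rik beyond it, and next above are Cetn4, a centrin gene, and Bbs12. The span from 37.01 to 37.14 Mb held 4 regions, and all 4 stood in its upper part. They measured 625 bp at chr3:37078819-37079443, 550 bp at chr3:37102744-37103293, 350 bp at chr3:37103619-37103968 and 150 bp at chr3:37118094-37118243. Their centres lay at 53.2, 71.6, 72.2 and 83.2% of the span from its lower end. The middle pair was 325 bp apart, and joining across 1000 bp made it 1 site.

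Below these regions stood the longest gap of any of the 5 loci. It measured 286 kb, from chr3:36792969 to 37078818, and covered the lower part of the span, the end of Il2 in the gene order, as well as 217 kb below it. Of all gaps in the map, 2.74% were at least this long. Only 2 regions closed it on the lower side, of 225 and 250 bp, at 217 and 230 kb from the span. The lower flank of Il2/Il21 was the only flank of the 10 without a region of 500 bp or more. The upper flank looked different. Its first region, of 625 bp at chr3:37170019-37170643, was 30.0 kb from the span, and 6 of its 7 regions were 500 bp or wider. They lay at 30.0, 61.5, 83.1, 173, 227 and 231 kb, and a region of 350 bp lay at 100.1 kb.

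Il10 encodes a cytokine that restrains inflammation. Below it in the RefSeq order lie Il19 and Il20, members of the same cytokine family, and above it Mapkapk2, a kinase of the p38 pathway, and Dyrk3. Its 20-kb span from 132.91 to 132.93 Mb was the only span without a listed CTCF region. It lay within a gap of 61.2 kb, from chr1:132884346 to 132945570, the longest gap of this locus, although 17.5% of all gaps in the map were at least as long. The track lists peaks alone, so weaker binding within this gap cannot be seen. Groups of regions closed the gap on both sides. Below, regions of 175, 500 and 600 bp lay 25.7, 28.7 and 33.5 kb from the span, the first at chr1:132884171-132884345. Above, regions of 325, 650 and 550 bp lay 15.6, 19.7 and 26.7 kb from it, the first at chr1:132945571-132945895.

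Farther from Il10, close groups of sites stood on both sides. The lower flank ended in 4 regions of 575 to 600 bp within 20.8 kb, from chr1:132673246 to 132693995. In the upper flank, 4 regions stood within 9.68 kb at 79.4 to 88.4 kb from the span, of which 825 and 725 bp were the widths of the middle pair. The largest group at this locus had 6 regions over 34.9 kb, from chr1:133142296 to 133177195, and began with the widest region of the locus, 1175 bp at chr1:133142296-133143470. Of the 31 gaps, 19 were 10 kb or shorter, and 0 were 1 kb or shorter. At Il4/Il13/Il5, 25 of the 42 gaps were 10 kb or shorter and 6 were 1 kb or shorter, and the regions beside these 6 measured 25 to 1275 bp.

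Il17a encodes a cytokine that recruits neutrophils. In the RefSeq order the kidney gene Pkhd1 and then Tfap2b lie below it, and its relative Il17f and then Mcm3, a subunit of the replication helicase, lie above. The 20-kb span from 20.71 to 20.73 Mb held a single region of 300 bp, at chr1:20728646-20728945. Its centre was 94.0% of the way to the upper end, 1.21 kb short of it, on the side of Il17f in the gene order. With the span drawn in by 5 kb at each end, this region fell outside and the span held 0. Below the span, 4 regions of 525 to 600 bp stood alone at 19.5, 107, 165 and 206 kb, the nearest at chr1:20689996-20690520. Above it the nearest regions were narrow, 100 bp at 22.4 kb (chr1:20752446-20752545) and 50 bp at 92.7 kb. The first wide region on that side was 550 bp at chr1:20880921-20881470, 151 kb from the span. Wide regions of 625 bp followed at 193 and 199 kb, and regions of 50 and 100 bp at 203 and 244 kb.

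At Il17a all 4 regions of the lower flank were 500 bp or wider, against 3 of 7 in the upper flank. The longest gap, 86.8 kb from chr1:20603246 to 20689995, lay in the lower flank, and 12% of all gaps were at least as long.

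Around the genes, the distance between the nearest flanking regions on each side was 61.2 kb at Il10, 61.9 kb at Il17a, 75.2 kb at Ifng, 129 kb at Il4/Il13/Il5 and 377 kb at Il2/Il21. These lengths pass over regions inside the gene span and include the span itself. The span is 20 kb long at Il10, Il17a and Ifng, 120 kb at Il4/Il13/Il5 and 130 kb at Il2/Il21. Counting only regions of 500 bp or more, the nearest below and above lay at 15.8 and 8.90 kb for Il4/Il13/Il5, 28.7 and 19.7 kb for Il10, 21.1 and 54.6 kb for Ifng, and 19.5 and 151 kb for Il17a. Il2/Il21 had none below within 250 kb and one at 30.0 kb above. The median gap within a locus was 6.93 kb at Il10 (exact 95% interval 4.3 to 16.15 kb) and 8.64 kb at Il4/Il13/Il5 (5.025 to 12.55 kb). It was 22.2 kb at Il2/Il21 (12.93 to 53.1 kb), 35.7 kb at Ifng (12.2 to 46.0 kb) and 41.1 kb at Il17a (4.95 to 70.12 kb). The interval of Il17a included the medians of all the other loci. Over all 106 gaps of the 5 loci the median was 12.7 kb (exact 95% interval 8.43 to 16.6 kb), against 14.6 kb over chromosomes 1 to 19 and X. No region at the loci was more than 100 kb from its nearest neighbour anywhere in the map.

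**Figure D3:**
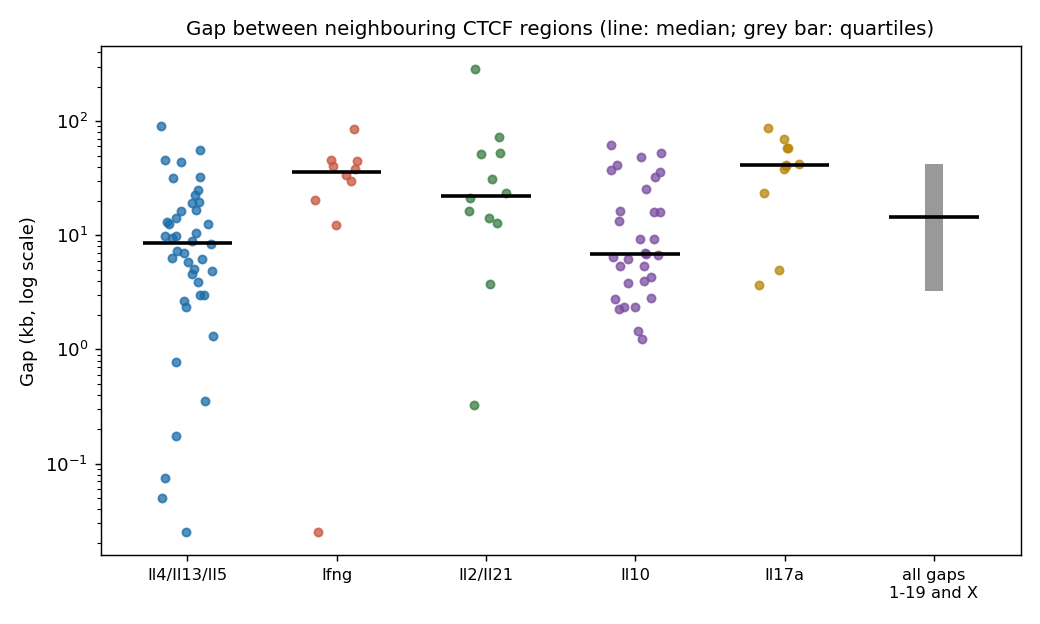
Gaps between neighbouring CTCF regions within each locus (vertical axis, kb, log scale), with the median as a line, and the quartiles of all gaps on chromosomes 1 to 19 and X as a grey bar. The medians are 8.64 kb at Il4/Il13/Il5, 35.7 kb at Ifng, 22.2 kb at Il2/Il21, 6.93 kb at Il10 and 41.1 kb at Il17a, against 14.6 kb for all gaps.

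At the cytokine loci 64 of 111 regions were wide. This share of 57.7% had an exact binomial 95% interval of 47.9 to 67.0%, and the share over the rest of chromosomes 1 to 19 and X was 46.6% (46.2 to 47.0%). Narrow regions numbered 15, 13.5% (7.77 to 21.3%), against 22.3% (22.0 to 22.7%) over the rest. Per length, the density of wide regions was 2.35 times that of the rest (95% interval 1.81 to 3.002), and that of narrow regions was 1.15 times (0.642 to 1.89). The interval of the wide regions included the ratio of 1.90 for regions of all widths, and that of the narrow ones ended just below it. The difference between wide and narrow regions was not tested. The share of wide regions was 64.7% (52.2 to 75.9%) without Il4/Il13/Il5. Its interval included the 46.6% of the rest without Il10, at 53.2% (41.6 to 64.5%), with flanks of 100 kb, at 56% (41.2 to 70.01%), and with flanks of 500 kb, at 50.5% (43.05 to 58.03%). The interval also included it without both Il4/Il13/Il5 and Il10, at 61.1% (43.5 to 76.9%), a choice made after the values were seen. Regions of 1 library are not independent replicates, and neighbouring sites can share causes, so the true error is larger than these intervals.

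The median width over the 5 loci was 550 bp (exact 95% interval 400 to 575 bp), against 425 bp over the rest. It was 400 bp at Il4/Il13/Il5 (175 to 575 bp), 500 bp at Ifng (125 to 625 bp) and 550 bp at Il2/Il21 (250 to 625 bp). It was 575 bp at Il10 (400 to 600 bp) and 537.5 bp at Il17a (100 to 600 bp). Each of these intervals included the 425 bp of the rest. With flanks of 100 and 500 kb the median was 200 and 412.5 bp at Il17a, and 525 and 300 bp at Ifng. Wide regions made up 22 of 32 at Il10, 68.8% (exact 95% interval 49.99 to 83.9%), and 20 of 43 at Il4/Il13/Il5, 46.5% (31.2 to 62.3%), with intervals that overlapped. The share was 7 of 11 at Ifng, 8 of 13 at Il2/Il21 and 7 of 12 at Il17a, with exact intervals that each ran over more than 50 percentage points. Narrow regions were 8 of 43 at Il4/Il13/Il5, 4 of 12 at Il17a, 2 of 32 at Il10, 1 of 11 at Ifng and 0 of 13 at Il2/Il21. Of the 15 narrow regions, 2 had another region within 200 bp, against 48.3% of the narrow regions of chromosomes 1 to 19 and X. Inside the gene spans 5 of the 9 regions were 500 bp or wider.

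Regions wider than 700 bp numbered 5 of 111, or 4.5% (exact 95% interval 1.48 to 10.2%), close to the 3.35% of the rest of the map. Of these, 2 lay at Il4/Il13/Il5 and 3 at Il10, the loci that hold most of the 111 regions. All 5 stood on the side of higher coordinates, which held 22 of all 43 regions at Il4/Il13/Il5 and 21 of all 32 at Il10. The side was looked at after the values were seen and was not tested. The widths of the 5 regions were 1275 and 1200 bp at Il4/Il13/Il5 and 1175, 825 and 725 bp at Il10. Such regions can be 1 broad site or several that lie side by side, and without heights these cannot be told apart. CTCF regions covered 3.16% of the Il10 window and 2.76% of the Il4/Il13/Il5 window. They covered 0.952% at Il2/Il21, 0.899% at Il17a and 0.894% at Ifng, against 0.802% of the rest of the map. In absolute length the regions covered 16.4 kb at Il10 and 17.1 kb at Il4/Il13/Il5, whose window is longer.

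**Figure D4:**
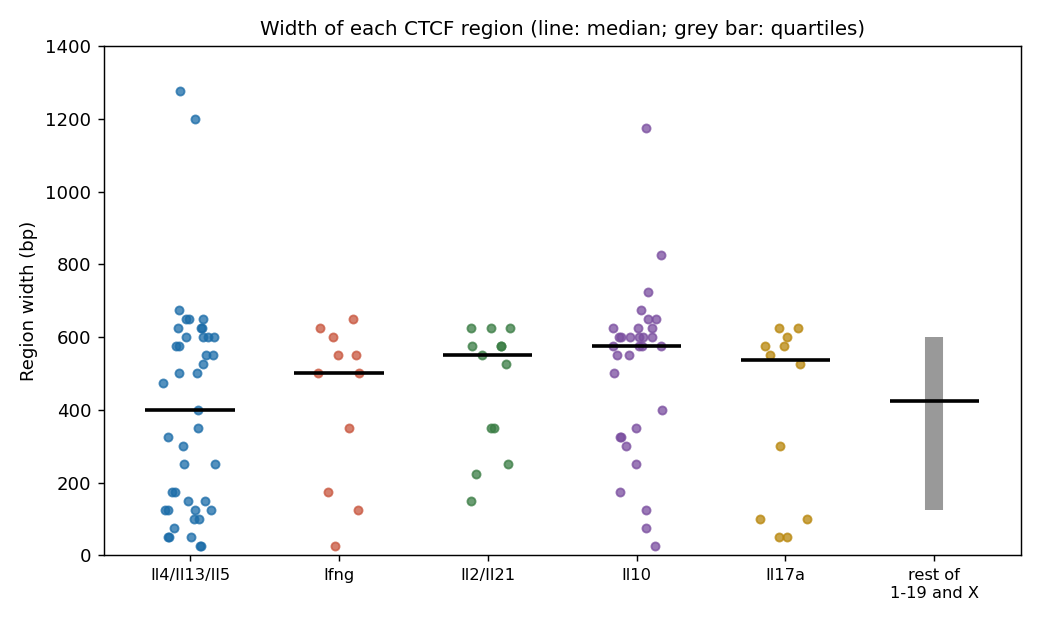
Width of every CTCF region (vertical axis, bp) at each locus, with the median as a line, and the quartiles of the rest of chromosomes 1 to 19 and X as a grey bar. The regions of 1175 to 1275 bp belong to Il4/Il13/Il5 and Il10, and the medians run from 400 bp at Il4/Il13/Il5 to 575 bp at Il10, against 425 bp for the rest.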

How the data were processed

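CTCF ChIP-seq of DN thymocytes was analysed from the track its authors deposited. Cells were fixed for 10 minutes in 1% formaldehyde, per the labels' protocols. The submitters' processing notes name Bowtie and build mm9. The caller of the peaks and any cutoff or input subtraction are not given in the sources used. All 825544 deposited intervals were 25 bp long and carried positions only, with no score, so depth is unknown. Touching bins were joined, and positions are given 1-based. Poisson, binomial and median intervals were exact, at 95%. Gene spans followed the stated rule. The members and lists were chosen with earlier results of these data known. Text names the 8 genes, the 2 nearest protein-coding genes on either side, all regions in a span, the nearest on each side and the widest of each locus. Other regions, such as groups and gaps, were picked after their values were seen. Comparison windows did not overlap and were laid from the first coordinate of each chromosome. They therefore included the stretch below its lowest region, where windows can only be empty. For densities, the rest of the map reached on each chromosome from its lowest to its highest region. Alternatives varied joining, narrow regions, flank, span ends and loci. DNA sequence and CTCF motifs were not analysed, since no mm9 genome was used. As a check of the code that joins bins, 53712 of 53712 simulated regions, laid out with gaps between them, were recovered. This check does not measure how well CTCF sites are detected. Python 3.11.15, numpy 2.4.6, pandas 2.3.3, scipy 1.17.1 and matplotlib 3.10.9 were used.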

Additional observations from a re-analysis of the deposited data

How the results depend on the processing

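Of 202 alternative values for 37 results, 169 stayed within their interval, within 1.5 times the count or at the same distance, and 33 moved. Joining within 200 or 1000 bp moved none of these values. The counts on each side of a span were not among the 37 results, and joining ended the excess above Il4/Il13/Il5. A change of direction could be scored only for the ratio of the pooled density to that of the rest, and 0 were seen. With flanks of 100 kb the counts were 20 at Il4/Il13/Il5, 6 at Ifng, 7 at Il2/Il21, 13 at Il10 and 4 at Il17a. With 500 kb they were 66, 22, 24, 46 and 24 in the same order. Counts depend on the length of the window. With flanks of 500 kb the density at Il10 was 45.1 regions per Mb (33.02 to 60.15), against 61.5 per Mb with 250 kb. Without regions of 100 bp or less, the nearest region above Il17a lay at 151 kb. Moving the span ends moved the distances below and above by construction. Outward by 5 kb they were 10.8 and 2.35 kb at Il4/Il13/Il5, where the nearest region below entered the span, 16.1 and 29.1 kb at Ifng, 212 and 25.02 kb at Il2/Il21, 20.7 and 10.6 kb at Il10, and 14.5 and 17.4 kb at Il17a. Inward by 5 kb they were 6.26 and 12.3 kb, 26.1 and 39.1 kb, 222 and 35.0 kb, 30.7 and 20.6 kb, and 24.5 and 3.65 kb, and the Il17a span held 0 regions. The ratio of the density of the loci to that of the rest, 1.90, became 1.49 without Il4/Il13/Il5 and 1.04 without both dense loci. No paired analysis was possible because only 1 library was used. Sites below the authors' threshold cannot be seen.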
